A study of Arabidopsis thaliana with 11 samples.

Results

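The genes described here make the pigments of the chloroplast, chlorophyll and the carotenoids. The set comprised 41 loci, chosen by their place in the 2 pathways: 25 of tetrapyrrole and chlorophyll synthesis, with their regulators and the bilin branch, and 16 of plastid isoprenoid and carotenoid synthesis. They are 41 of 27444 protein-coding nuclear genes of Arabidopsis thaliana, and all were found in the reference table of gene names. Chlorophyll is built in the plastid from glutamate through 5-aminolevulinic acid and protoporphyrin IX, which Mg-chelatase turns towards chlorophyll and away from heme and the phytochrome chromophore. Carotenoids come from the plastid isoprenoid pathway through phytoene and lycopene, and protect the photosystems from excess light. Dark-grown seedlings hold little chlorophyll and green within hours of light, and HY5, a basic leucine zipper transcription factor, is a known promoter of that change.

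The study mapped where tagged HY5 sits on the genome, by chromatin immunoprecipitation with a Flag antibody and sequencing (ChIP-seq), and compared HY5 fused to an activation or a repression domain with unmodified HY5. HY5-VP16 carries the activation domain (3 libraries), HY5-SRDX the repression domain (2 libraries), and HY5ox has no added domain (3 libraries). All were whole seedlings of ecotype Columbia, grown in the dark for 3 days at 21 °C and lit for 2.5 h with simulated white light (100 µmol per m2 and s). The labels name no tagged protein for the 3 control samples, Col-0 in sets 1 and 3 and hy5 in set 2. Set 1 held HY5-VP16 replicates 1 and 2, both HY5-SRDX libraries and HY5ox replicate 1, set 2 held HY5ox replicate 2, which was collected and processed apart, and set 3 held HY5-VP16 replicate 3 and HY5ox replicate 3. The 3 forms carried the FLASH2 tag, which includes Flag, and were driven by the viral 35S promoter in place of HY5's own. Their level and the cells that held them may thus differ from those of native HY5, and were not measured here. Whole seedlings average over all cell types. Whether libraries of 1 construct stem from separate plants or lines is not stated, so the spread between them may be technical. No RNA was measured, so a listed gene is a gene with a peak and not a gene that changed.

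Depth ranged from 11.5 to 56.0 M tags per library and the number of peaks from 2958 to 20509. A pair of libraries stood apart, and values without them are given where they matter: HY5-VP16 replicate 3 had the fewest peaks, with 1.83% of its tags in peaks against 5.94% to 10.13% elsewhere, and HY5-SRDX replicate 1 had the most peaks, only 51.3% of them in promoters against 70.8% to 82.2% elsewhere. A gene was listed in a library when the authors' gene list for it held the gene. That meant at least 1 peak in the 2000 bp upstream of its start site, called the promoter, or in the gene body. Peak strength is given as the percentage of the peaks of the same library with a higher caller score, so that 0% is the strongest peak, and as the authors' fold of peak tags over the control of the set. Both describe a peak within its own list. The lists differ in length, so values from different libraries stand side by side as descriptions and show no change between constructs.

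In every library a larger share of the pigment genes than of all protein-coding genes was listed. HY5-VP16 replicates 1, 2 and 3 listed 21, 21 and 13 of the 41 genes, or 51.2%, 51.2% and 31.7%, where 34.9%, 44.6% and 12.4% of protein-coding genes were listed. HY5-SRDX replicates 1 and 2 listed 27 and 20 pigment genes, or 65.9% and 48.8%, beside 52.5% and 40.4% of protein-coding genes. HY5ox replicates 1, 2 and 3 listed 24, 17 and 28, or 58.5%, 41.5% and 68.3%, beside 46.4%, 28.9% and 41%. The pigment genes were ahead by 6.67 to 27.3 percentage points, least in HY5-VP16 replicate 2 and most in HY5ox replicate 3. Over all libraries 171 of 328 possible listings were made (52.1%), against 37.6% for protein-coding genes.

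Agreement between libraries was also above the background. The libraries of HY5-VP16 shared 13 pigment genes (31.7%, beside 10.7% of protein-coding genes), those of HY5-SRDX 13 (31.7% beside 26.4%) and those of HY5ox 14 (34.1% beside 23.5%). All 8 libraries listed CAO, HY1, LUT2, BCH1 and ZEP, which is 5 genes (12.2%) beside 6.58% of protein-coding genes. Another 9 were missed by 1 library only, so that 14 pigment genes (34.1%) beside 14.4% of protein-coding genes were listed in at least 7. At the other end 9 genes were listed once (21.95%, close to the 20.1% of protein-coding genes) and CHLI2, which encodes a Mg-chelatase I subunit, not at all; 19% of protein-coding genes were listed in no library. Leaving out HY5-SRDX replicate 1 or 2 leaves 1 HY5-SRDX library, with 20 or 27 genes, and HY5ox shared 23 without replicate 2 (56.1% beside 34.7%). Without HY5-SRDX replicate 1 the genes shared by all remaining libraries numbered 9 (21.95% beside 8.46%), without HY5-SRDX replicate 2 they numbered 8 (19.5% beside 7.28%), and without both HY5-VP16 replicate 3 and HY5-SRDX replicate 1 they numbered 10 (24.4% beside 14.9%). With promoter assignments only, all 8 libraries shared CAO, LUT2 and ZEP (7.32% beside 4.91%), with peaks of at least 5 times the control tags LUT2 alone (2.44% beside 1.29%), and with the 2958 strongest peaks of each library no pigment gene (beside 1.96%). All 5 genes kept a peak of their own in every library when peaks assigned to several genes were dropped (12.2% beside 2.54%).

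**Figure D1:**
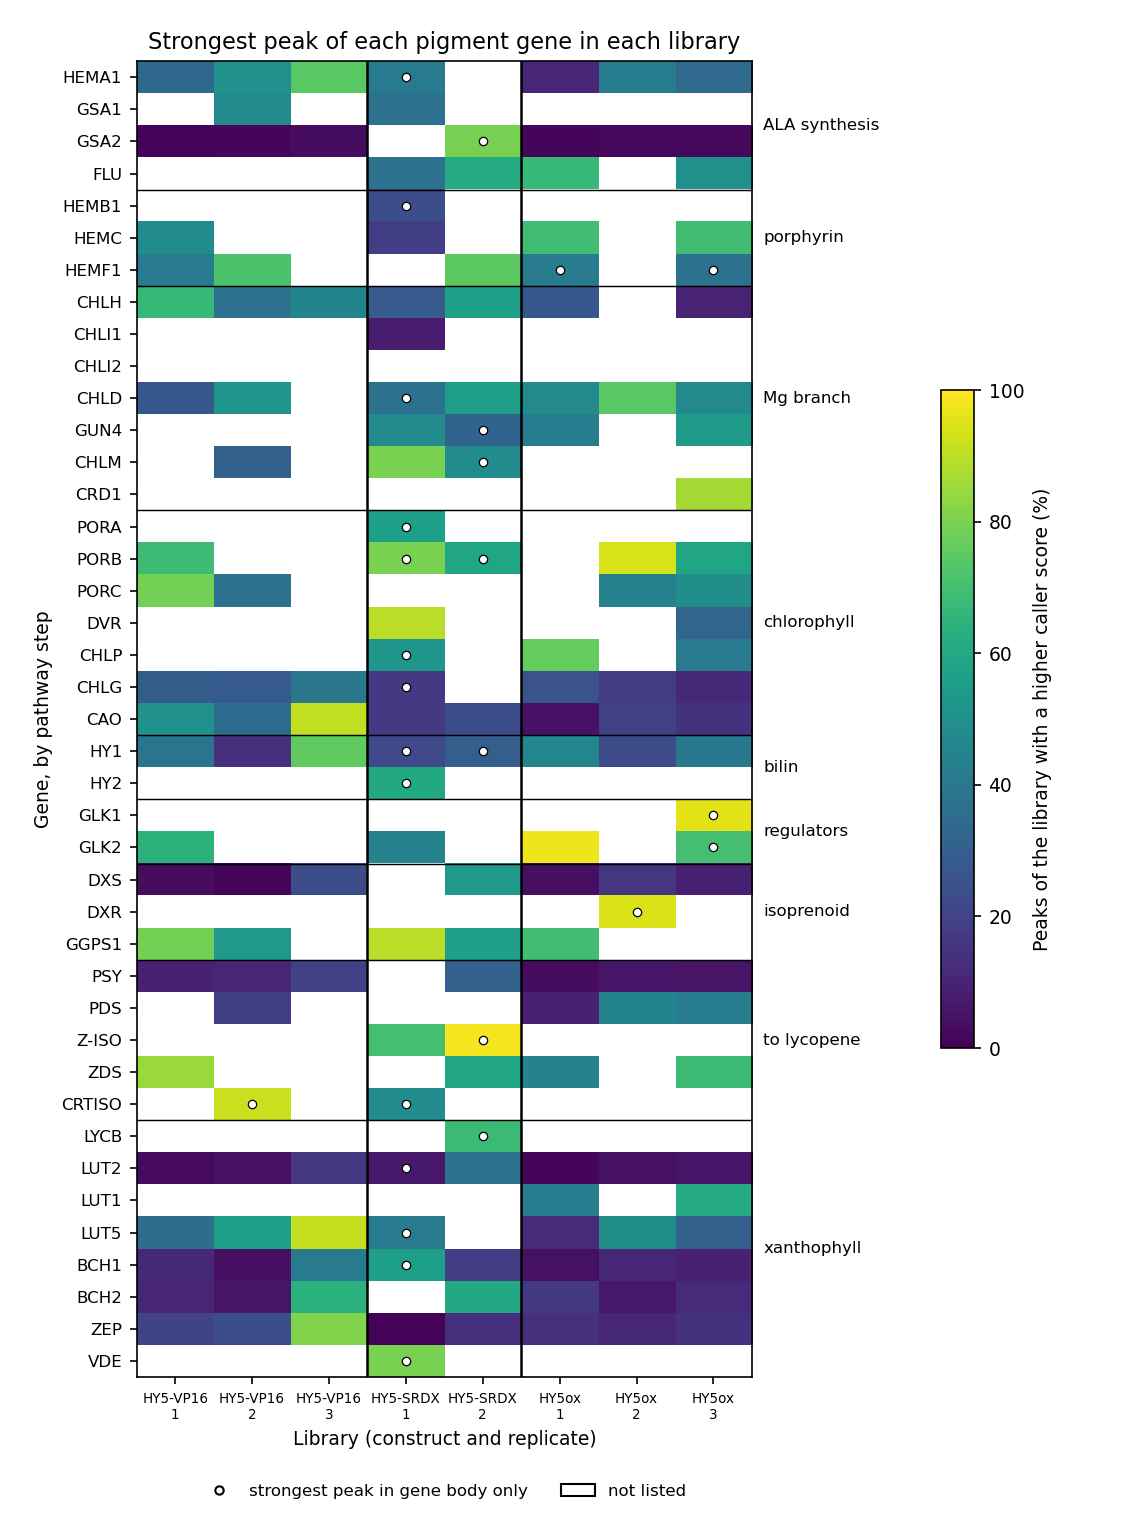
The 41 pigment genes (rows, by pathway step) in the 8 libraries (columns: HY5-VP16, HY5-SRDX, HY5ox, with replicate numbers). Colour gives the percentage of that library's peaks with a higher caller score than the gene's strongest peak, white means not listed, and a dot marks a strongest peak in the gene body only; the full rows are CAO, HY1, LUT2, BCH1 and ZEP.

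**Figure D2:**
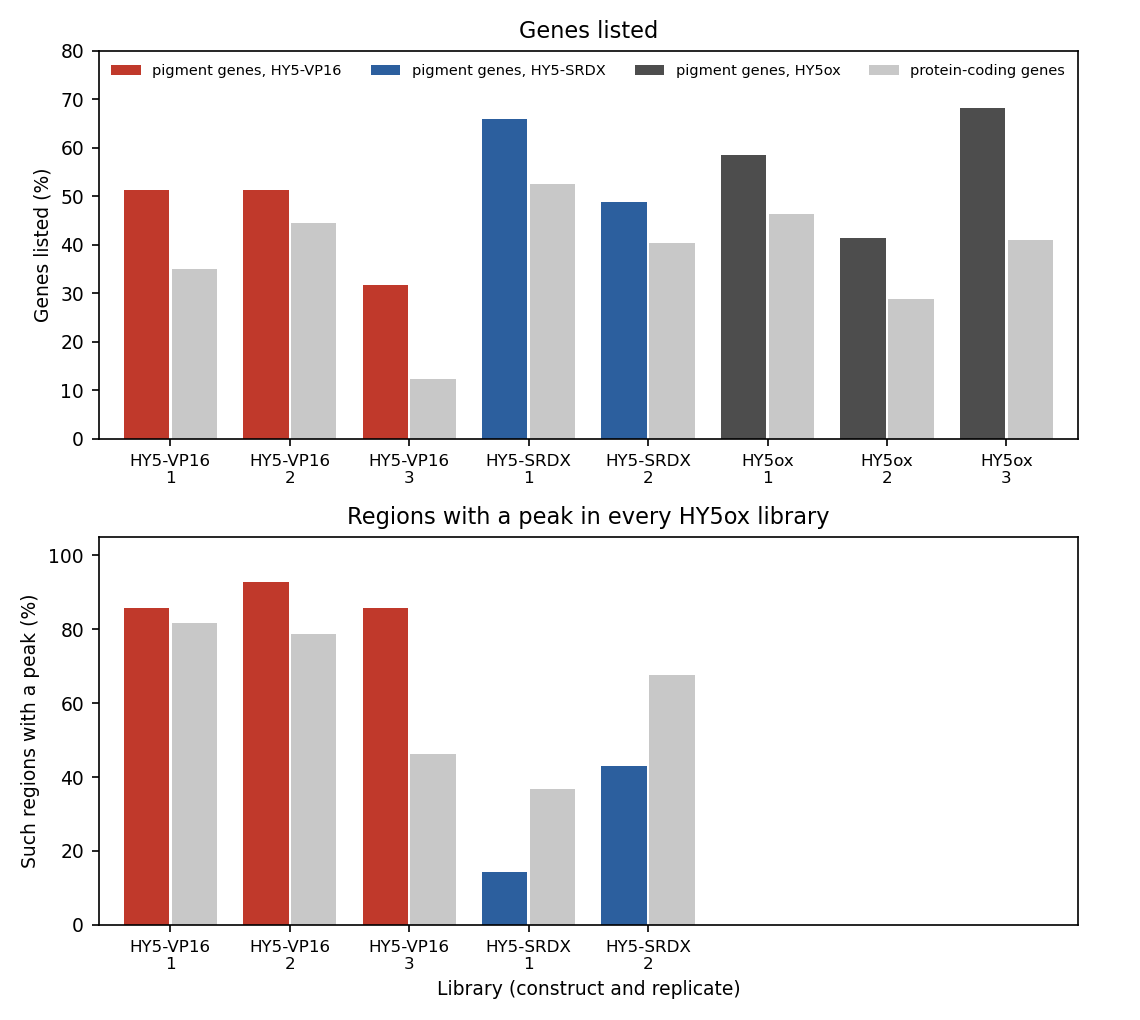
Upper panel: percentage of the 41 pigment genes (coloured by construct) and of 27444 protein-coding genes (grey) listed in each library. Lower panel: of the regions with a peak in every HY5ox library, the percentage that carried a peak in the HY5-VP16 or HY5-SRDX library named; the pigment gene bar is below the grey bar in both HY5-SRDX libraries, at 14.3% and 42.9%, and above it in the 3 HY5-VP16 libraries.

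The share of listings varied by pathway step, beside 37.6% for protein-coding genes. The xanthophyll steps had 42 of 64 possible listings (65.6%) and the synthesis of 5-aminolevulinic acid 20 of 32 (62.5%). The bilin branch followed with 56.3%, the plastid isoprenoid steps with 54.2%, the last steps of chlorophyll with 53.6% and the steps to lycopene with 47.5%. The porphyrin steps had 41.7% and the Mg branch 41.1%, both near that background, and the GLK regulators had 31.3%, below it. Steps of 2 to 8 genes are small, and no test was made of these differences.

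At the entry to the tetrapyrrole pathway, HEMA1 and GSA2 led. HEMA1 (AT1G58290, chromosome 1, minus strand) encodes glutamyl-tRNA reductase, the enzyme at which 5-aminolevulinic acid synthesis is controlled. Its strongest peak stood at 33.9%, 50.5% and 74.5% of the ranking in HY5-VP16 replicates 1, 2 and 3, at 41.02% in HY5-SRDX replicate 1 and at 10.9%, 42.4% and 34.3% in HY5ox replicates 1, 2 and 3; HY5-SRDX replicate 2 did not list the gene. Its folds over control were 3.44, 3.1 and 3.56 in HY5-VP16, 3.68 in HY5-SRDX replicate 1 and 4.93, 3.9 and 6.1 in HY5ox. In HY5-VP16 and HY5ox the peak centre lay between -88 and 29 bp of the start site, whereas the HY5-SRDX peak lay in the gene body at 1220 bp. Glutamate-1-semialdehyde aminotransferase, which makes 5-aminolevulinic acid itself, is encoded by GSA1 and GSA2. GSA2 (AT3G48730, chromosome 3, plus strand) had strong peaks, at 1.10%, 1.61% and 3.25% in HY5-VP16 and 1.72%, 2.16% and 2.00% in HY5ox. These peaks were centred between -729 and -697 bp, with folds of 8.18, 5.03 and 6.33 in HY5-VP16 and 9.3, 5.98 and 11.57 in HY5ox. In HY5-SRDX replicate 2 the gene was listed for a weak peak in the gene body (79.6%, fold 3.24, 1299 bp), and in HY5-SRDX replicate 1 it was not listed. The upstream peak was also assigned to the neighbour DCF (AT3G48720), so the lists do not tell which gene it serves. GSA1 was listed in 2 libraries, HY5-VP16 replicate 2 and HY5-SRDX replicate 1. FLU, a negative regulator of 5-aminolevulinic acid synthesis, was listed in both HY5-SRDX libraries and in HY5ox replicates 1 and 3, and in no HY5-VP16 library.

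The porphyrin steps had no gene in 7 or 8 libraries. HEMF1, coproporphyrinogen III oxidase, was listed in 5 and HEMC, porphobilinogen deaminase, in 4. HEMB1, 5-aminolevulinic acid dehydratase, was listed in HY5-SRDX replicate 1 alone, for peaks in the gene body.

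In the Mg branch the H and D subunits of Mg-chelatase were widely listed and the I subunits were not. CHLH (AT5G13630, also known as GUN5) was listed in all libraries but HY5ox replicate 2. Its strongest peak stood at 67.2%, 37.4% and 45.1% in HY5-VP16, at 28.8% and 56.5% in HY5-SRDX, and at 27.1% and 9.54% in HY5ox replicates 1 and 3. A region at the start site was covered in every HY5-VP16 library and those 2 HY5ox libraries. Both HY5-SRDX libraries had their strongest CHLH peak upstream instead, at -2006 and -2053 bp, a site with no peak in the other constructs. All upstream and start-site peaks of CHLH were also assigned to its neighbour PDAT (AT5G13640). CHLD (AT1G08520) had peaks in a region far upstream (centres from -1868 to -1709 bp), in another at -1156 and -930 bp and in one at the start site (-108 to 364 bp), and different libraries had their strongest peak in different ones. Its strongest peak stood at 27.5% and 52.2% in HY5-VP16 replicates 1 and 2, at 37.7% and 56.5% in HY5-SRDX and at 47.8%, 74.4% and 47.7% in HY5ox. HY5-VP16 replicate 3 did not list it. All of these strongest peaks but that of HY5-SRDX replicate 1 were also assigned to the neighbour FATB (AT1G08510). CHLI1 was listed in HY5-SRDX replicate 1 only, at -1477 bp. GUN4, an activator of Mg-chelatase, was listed in both HY5-SRDX libraries and 2 HY5ox libraries, CHLM, the next enzyme, in 3 libraries and CRD1, the cyclase, in HY5ox replicate 3 only.

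Among the last steps of chlorophyll synthesis CAO and CHLG stood out. CAO (AT1G44446, chromosome 1, 16848360 to 16851224, minus strand) encodes chlorophyllide a oxygenase, which makes chlorophyll b. Its strongest peak stood at 50.5%, 35.0% and 90.7% in HY5-VP16, at 16.8% and 24.2% in HY5-SRDX and at 5.01%, 19.1% and 14.5% in HY5ox, and it was assigned to no other gene. Folds over control were 21.25, 20.06 and 3.68 in HY5-VP16, 17.45 and 23.75 in HY5-SRDX and 52.44, 7.14 and 11.97 in HY5ox. All 8 of these peaks overlapped in the region 16851161 to 16851500, with centres from -142 to -87 bp, so every library marked the same site just upstream of the start. HY5-SRDX replicate 2 had a further, weaker CAO peak in the gene body at 2402 bp. CHLG (AT3G51820) encodes chlorophyll synthase, which attaches the phytyl tail. It stood at 29.4%, 28.2% and 39.8% in HY5-VP16, at 16.8% in HY5-SRDX replicate 1 and at 25.4%, 17.6% and 11.2% in HY5ox, and was not listed in HY5-SRDX replicate 2. In HY5-VP16 and HY5ox the strongest peak sat on the start site, with centres from -28 to 18 bp, and was also assigned to SAC8 (AT3G51830); in HY5-SRDX replicate 1 it lay at 1893 bp in the gene body. The light-dependent protochlorophyllide oxidoreductases were listed unevenly. PORB was listed in 5 libraries, PORC in 4 (2 of HY5-VP16, none of HY5-SRDX and 2 of HY5ox) and PORA, the form known from etiolated seedlings, in HY5-SRDX replicate 1 only. CHLP, the geranylgeranyl reductase that supplies the tail, was listed in 3 libraries, and DVR, the divinyl reductase, in 2.

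In the bilin branch, HY1 (AT2G26670, chromosome 2, 11341685 to 11343572, plus strand) encodes the heme oxygenase that leads to the phytochrome chromophore. All 8 libraries listed it, at 38.7%, 13.5% and 75.7% in HY5-VP16, 21.99% and 30.3% in HY5-SRDX and 45.7%, 23.3% and 40.4% in HY5ox. The folds were 5.39, 5.53 and 3.69 in HY5-VP16, 3.16 and 5.05 in HY5-SRDX and 5.93, 4.42 and 7.11 in HY5ox. The place differed by construct: centres lay from -510 to -417 bp in every HY5-VP16 and HY5ox library, and at 243 and 253 bp, inside the gene, in the 2 HY5-SRDX libraries. HY2, phytochromobilin synthase, was listed in HY5-SRDX replicate 1 only. Of the GLK transcription factors, known activators of chlorophyll synthesis genes, GLK2 was listed in 4 libraries and GLK1 in HY5ox replicate 3 only, at 95.9% of the ranking.

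Entry to the plastid isoprenoid pathway had a strong peak at DXS and little at the next gene. DXS (AT4G15560, chromosome 4, 8883908 to 8887565, plus strand) encodes 1-deoxy-D-xylulose 5-phosphate synthase, the entry enzyme. It stood at 3.13%, 1.47% and 24.04% in HY5-VP16, at 54.3% in HY5-SRDX replicate 2 and at 4.14%, 15.99% and 8.68% in HY5ox. Folds were 18.87, 16.54 and 6.27 in HY5-VP16, 6.55 in HY5-SRDX replicate 2 and 25.26, 8.22 and 12.1 in HY5ox. All 7 peaks had centres from -95 to -56 bp and belonged to DXS alone, and HY5-SRDX replicate 1 had no peak within 5041 bp of that region. DXR, the following enzyme, was listed in HY5ox replicate 2 only, for a peak at 94.9% in the gene body. GGPS1, which makes geranylgeranyl diphosphate, was listed in 5 libraries.

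PSY led the steps to lycopene. It encodes phytoene synthase, the entry enzyme of carotenoid synthesis (AT5G17230, chromosome 5, minus strand). Its strongest peak stood at 9.24%, 10.9% and 19.9% in HY5-VP16, 30.9% in HY5-SRDX replicate 2 and 3.47%, 6.08% and 5.13% in HY5ox. The 7 peaks overlapped far upstream, in the region 5664027 to 5664373 of chromosome 5 with centres from -1377 to -1257 bp, and were also assigned to the locus AT5G17233. Folds were 6.71, 4.56 and 5.42 in HY5-VP16, 4.9 in HY5-SRDX replicate 2 and 10.04, 7.87 and 13.45 in HY5ox, and HY5-SRDX replicate 1 did not list the gene. PDS, phytoene desaturase, was listed in every HY5ox library and in HY5-VP16 replicate 2, always between -423 and -394 bp, and in no HY5-SRDX library. ZDS, zeta-carotene desaturase, was listed in 4 libraries. Z-ISO, zeta-carotene isomerase, was listed in both HY5-SRDX libraries and nowhere else, but for different places, -1909 and 228 bp. CRTISO, carotenoid isomerase, was listed in HY5-VP16 replicate 2 and HY5-SRDX replicate 1, in the gene body.

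The xanthophyll steps held 3 of the 5 genes listed everywhere. LUT2 (AT5G57030, chromosome 5, 23077266 to 23080053, plus strand) encodes lycopene epsilon-cyclase, which directs lycopene towards lutein. It stood at 2.75%, 4.52% and 15.9% in HY5-VP16, 6.62% and 37.6% in HY5-SRDX and 1.78%, 4.59% and 6.25% in HY5ox, with folds of 31.13, 19.44 and 5.16 in HY5-VP16, 3.81 and 5.62 in HY5-SRDX and 44.46, 7.18 and 10.31 in HY5ox. The peak lay between -213 and -87 bp in 7 libraries, and in HY5-SRDX replicate 1 at 1066 bp, in the gene body. LYCB, the lycopene beta-cyclase, was listed in HY5-SRDX replicate 2 only, at 68.0% and in the gene body. The 2 lycopene cyclase genes thus differed, with LUT2 in 8 libraries and LYCB in 1.

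BCH1 and BCH2 encode the beta-carotene hydroxylases that make zeaxanthin. BCH1 (AT4G25700) stood at 11.5%, 4.16% and 40.8% in HY5-VP16, at 56.4% and 17.9% in HY5-SRDX and at 4.46%, 10.9% and 9.26% in HY5ox. Its strongest peak was far upstream, with centres from -1036 to -941 bp in 7 libraries, and was in the gene body at 1453 bp in HY5-SRDX replicate 1. That gene body site also held a weaker BCH1 peak of HY5-VP16 replicate 2, at 1317 bp (16.4%, fold 25.18). BCH2 (AT5G52570) stood at 10.9%, 5.17% and 63.9% in HY5-VP16, at 60.3% in HY5-SRDX replicate 2 and at 17.1%, 6.76% and 11.9% in HY5ox. The centre of its strongest peak was at -294 to -261 bp in HY5-VP16 and HY5ox but at -1040 bp in HY5-SRDX replicate 2. Weaker BCH2 peaks of HY5-VP16 replicates 1 and 2, at -1113 and -1148 bp, overlapped that HY5-SRDX peak. All BCH2 peaks were also assigned to AT5G52580. LUT5 (AT1G31800), a cytochrome P450 that hydroxylates the beta ring, stood at 35.8%, 55.6% and 91.4% in HY5-VP16, at 41.02% in HY5-SRDX replicate 1 and at 11.95%, 49.3% and 30.7% in HY5ox. In HY5-VP16 and HY5ox the strongest LUT5 peak was centred from -105 to -54 bp. In HY5-SRDX replicate 1 it lay at 1364 bp, in the gene body. All LUT5 peaks were also assigned to the neighbour AT1G31790. LUT1, the epsilon-ring hydroxylase, was listed in HY5ox replicates 1 and 3 only.

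ZEP and VDE run the xanthophyll cycle in opposite directions. ZEP (AT5G67030, chromosome 5, 26753511 to 26757236, minus strand), zeaxanthin epoxidase, stood at 20.6%, 24.2% and 81.2% in HY5-VP16, at 0.824% and 13.7% in HY5-SRDX and at 13.6%, 11.6% and 14.6% in HY5ox. Folds were 21.71, 5.12 and 3.11 in HY5-VP16, 9.54 and 7.36 in HY5-SRDX and 11.11, 6.07 and 8.62 in HY5ox. Every library had a ZEP peak upstream of the start site, with centres from -363 to -19 bp in the region 26757137 to 26757725. VDE, violaxanthin de-epoxidase, was listed in HY5-SRDX replicate 1 only, for a peak in the gene body 2448 bp from the start site.

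**Figure D3:**
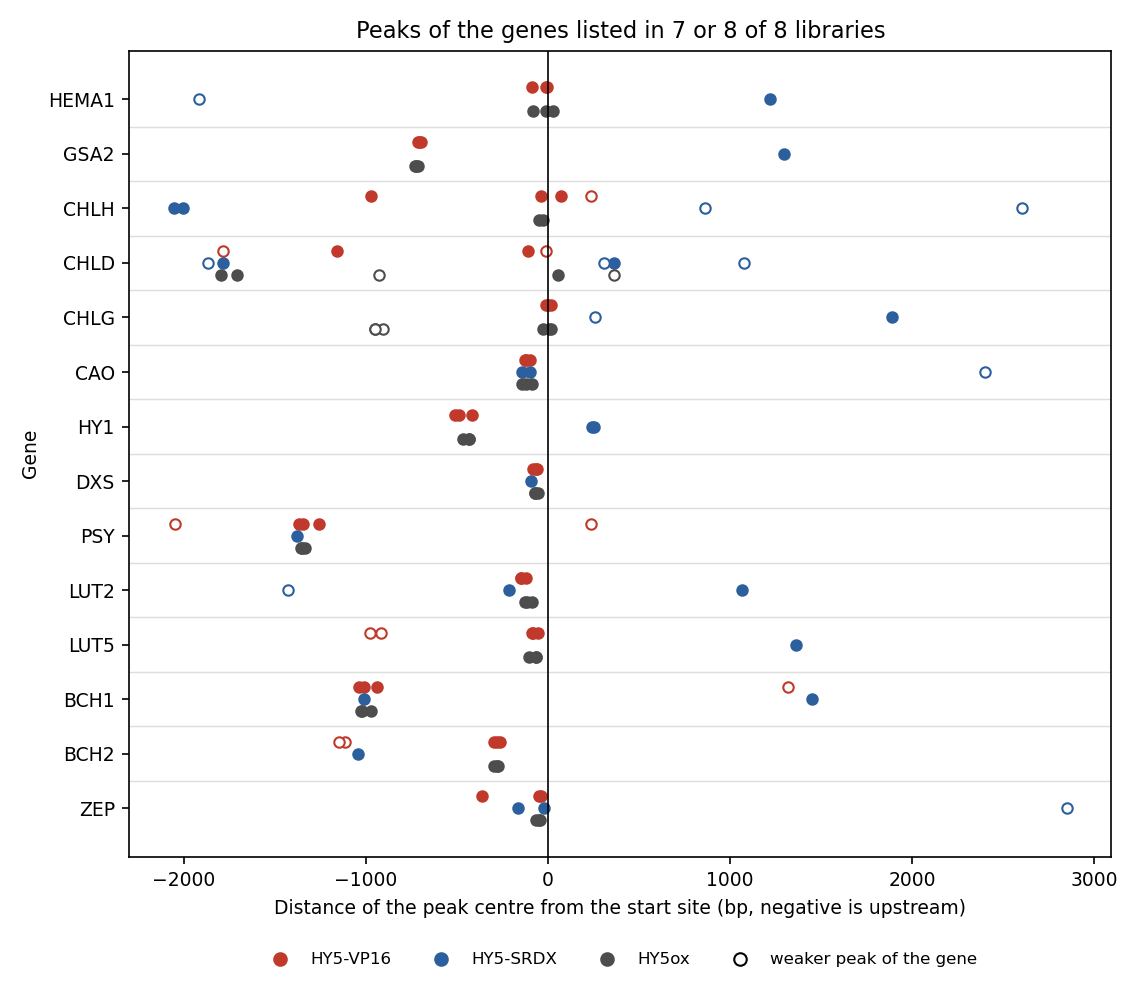
Distance of every peak centre from the start site (bp, negative is upstream) for the 14 genes listed in 7 or 8 libraries, coloured by construct, HY5-VP16 uppermost, HY5-SRDX in the middle and HY5ox lowest in each row; filled points are the strongest peak of the gene in a library and open points its weaker peaks. The strongest peaks of CAO and DXS lie at 1 place in every library that listed the gene, with 1 weaker CAO peak of HY5-SRDX replicate 2 at 2402 bp, and at HY1 the 2 HY5-SRDX points lie at 243 and 253 bp while the other 6 lie between -510 and -417 bp.

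The place of the strongest peak differed between constructs. It was in the promoter for 98.4% ± 2.75 of the listed pigment genes in HY5-VP16 (SD, n = 3 libraries), 56.6% ± 11.9 in HY5-SRDX (n = 2) and 93.1% ± 3.40 in HY5ox (n = 3). The same shares of listed protein-coding genes were 82.5% ± 5.42, 66.7% ± 17.2 and 86.4% ± 1.22. In single libraries the pigment gene share was 100%, 95.2% and 100% in HY5-VP16, 48.1% and 65% in HY5-SRDX and 95.8%, 94.1% and 89.3% in HY5ox. HY5-SRDX did not overlap the other constructs, in the pigment genes or without its replicate 1. Among protein-coding genes it was HY5-SRDX replicate 1, at 54.5%, that stood below all others, while replicate 2, at 78.9%, was above HY5-VP16 replicate 2, at 76.4%. Within each library the median rank of the strongest peak of listed pigment genes was set beside that of listed protein-coding genes. It was 35.8%, 30.9% and 45.1% in HY5-VP16, beside 47.3%, 44.9% and 45.5%. In HY5-SRDX it was 41.02% and 56.5%, beside 41.02% and 48.1%, and in HY5ox 26.3%, 19.1% and 38.8%, beside 45.7%, 45.3% and 45.3%. The pigment genes thus stood higher in their own list in HY5-VP16 replicates 1 and 2 and in the 3 HY5ox libraries. They were nearly level in HY5-VP16 replicate 3, level in HY5-SRDX replicate 1 and lower in HY5-SRDX replicate 2. In HY5-VP16 the ranks depended on whether score or fold was used, as given below.

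Overlapping peaks of all libraries were merged into regions to ask whether the libraries marked the same sites. The pigment genes had 87 regions, of which 2, those of CAO and ZEP, had a peak in all 8 libraries (2.299%, beside 2.49% of 34423 regions of protein-coding genes), and 51 had a peak in 1 library only (58.6% beside 61%). The CAO peaks all overlapped each other. At ZEP the peak of HY5-VP16 replicate 1, centred at -363 bp, overlapped only that of HY5-SRDX replicate 1. The authors' deposited table of peaks merged over all libraries also held CAO and ZEP and no other pigment gene, so HY1, LUT2 and BCH1 were listed everywhere without a shared region. Of 31 genes listed in 2 or more libraries, PORC, CAO, DXS, PSY, PDS and LUT1 had strongest peaks that overlapped in every library listing them.

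Regions with a peak in every HY5ox library were then looked up in each library of the other constructs. The choice required HY5ox peaks alone, but the regions were merged from peaks of all libraries. Peaks of the other constructs could thus widen or join them. The pigment genes had 14 such regions. HY5-VP16 replicates 1, 2 and 3 had a peak in 12, 13 and 12 of them, or 85.7%, 92.9% and 85.7%, beside 81.6%, 78.7% and 46.2% of those of protein-coding genes. HY5-SRDX replicates 1 and 2 had a peak in 2 and 6, or 14.3% and 42.9%, beside 36.7% and 67.7%. Both HY5-SRDX libraries were below their own share of protein-coding genes and the 3 HY5-VP16 libraries above theirs; no test was made, and the lookup was chosen after the peak positions had been seen. Depth was 16.1 and 20.4 M tags in the HY5-SRDX libraries and 15.7 and 19.7 M in HY5-VP16 replicates 1 and 2 of the same set, and its part in these shares was not tested.

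The regions of HEMA1, GSA2, CHLG, HY1, LUT5 and BCH2 had a peak in every HY5-VP16 and HY5ox library and in neither HY5-SRDX library. That is 6 of 87 pigment gene regions (6.90%), beside 0.842% of regions of protein-coding genes. Peaks in the regions of GSA2, CHLG, LUT5 and BCH2 were also assigned to a neighbour, whereas those of HEMA1 and HY1 were not. The nearest HY5-SRDX peaks lay 19 bp away at CHLG, in replicate 1, 430 and 441 bp away at HY1, 493 bp away at BCH2, in replicate 2, and 967 bp or more from the regions of HEMA1, GSA2 and LUT5. Within set 1 alone, where all constructs share a control, CHLH joined them and the count was 7 (8.05% beside 3.11%). When only peaks of at least 5 times the control tags were kept, the region of GSA2 alone met the description (1 of 50 regions, 2%, beside 0.33%), and when peaks were joined over gaps of up to 250 bp that of CHLG dropped out (5 of 81, 6.17%, beside 0.824%). Without HY5-SRDX replicate 2, DXS, PSY, LUT2 and BCH1 were added to make 10 regions (11.5% beside 2.68%), and without HY5ox replicate 2 CHLH was added to make 7 (8.05% beside 0.947%). The 6 regions were the same without HY5-VP16 replicate 1 (background 0.967%), 2 (1.02%) or 3 (1.77%), without HY5-SRDX replicate 1 (1.01%) and without HY5ox replicate 1 (0.866%) or 3 (0.845%). Taking the constructs in pairs, 7 regions (8.05%, beside 1.01%) had a peak in every HY5-VP16 and no HY5-SRDX library, the seventh at CHLH. In every HY5ox and no HY5-SRDX library there were 8 (9.20% beside 3.79%), which included PDS and the more distant of 2 regions of CHLG. In the other direction, in both HY5-SRDX libraries and no HY5-VP16 library there were 2 (2.299% beside 2.07%), and likewise 2 without a HY5ox library (beside 2.46%), at CHLH and HY1 each time. HY5-VP16 and HY5ox were set apart by the distant CHLG region alone, in every HY5ox and no HY5-VP16 library (1 region, 1.15% beside 1.08%), and no region was in every HY5-VP16 and no HY5ox library (beside 0.0203%). By Fisher's exact test, two-sided, the division of 2 HY5-SRDX libraries from the other 6 gives p = 0.0357 at each of the 6 regions, the smallest it allows, and an adjusted p = 0.523 over all 34423 regions, so no region passed. The comparison was made after the peak positions had been seen.

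**Figure D4:**
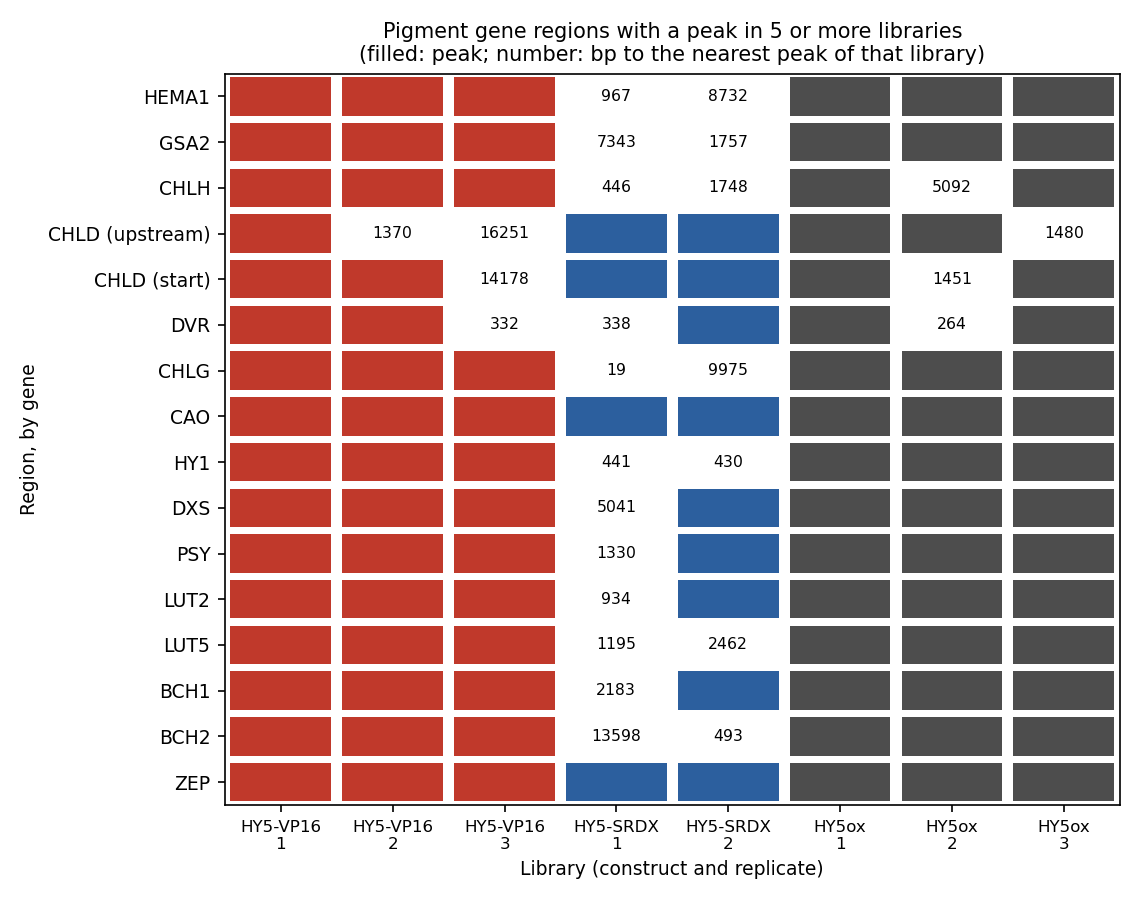
The 16 pigment gene regions with a peak in 5 or more libraries (rows, by pathway step; CHLD has 2) in the 8 libraries (columns, HY5-VP16, HY5-SRDX, HY5ox). In the DVR row only the peak of HY5ox replicate 3 was assigned to DVR. A filled cell means a peak, and a number is the distance in bp to the nearest peak of that library; both HY5-SRDX cells are open at HEMA1, GSA2, CHLG, HY1, LUT5 and BCH2, and a region could be drawn through the other 6 libraries alone.

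Counted by gene and not by region, few pigment genes separated the constructs. None was in every HY5-VP16 library and no HY5ox library (background 0%), and none in every HY5ox library and no HY5-VP16 library (1.37%). None was in every HY5-VP16 library and no HY5-SRDX library (0.758%), and Z-ISO, FLU and GUN4 were in both HY5-SRDX libraries and no HY5-VP16 library (4.67%). Z-ISO and CHLM were in both HY5-SRDX libraries and no HY5ox library (4.43%), and PDS was in every HY5ox library and no HY5-SRDX library (2.84%). Of these genes, PDS had overlapping peaks in the libraries that listed it, while the HY5-SRDX peaks of Z-ISO, FLU, GUN4 and CHLM did not overlap each other. With 3 libraries against 3 or 2, Fisher's exact test (two-sided) cannot go below p = 0.1, no gene had an unadjusted p under 0.05, and the smallest p adjusted over all genes was 0.979. The counts hung on single libraries. Without HY5-SRDX replicate 2, 10 genes (24.4% beside 20.7%) were in HY5-SRDX and no HY5-VP16 library and 9 (21.95% beside 19.8%) in HY5-SRDX and no HY5ox library, both near the background. In the same setting GSA2, DXS, PSY and BCH2 (9.76% beside 2.9%) were in every HY5-VP16 and no HY5-SRDX library, and these 4 with PDS (12.2% beside 7.68%) in every HY5ox and no HY5-SRDX library. Without HY5-SRDX replicate 1, HEMA1, CHLG and LUT5 (7.32% beside 1.53%) were in every HY5-VP16 and no HY5-SRDX library, and these 3 with PDS (9.76% beside 5.67%) in every HY5ox and no HY5-SRDX library. Without HY5-VP16 replicate 3, PORC (2.44% beside 3.06%) was in every HY5-VP16 and no HY5-SRDX library, and without HY5-VP16 replicate 2, PDS (2.44% beside 3.18%) was in every HY5ox and no HY5-VP16 library. Without HY5ox replicate 2, FLU, GUN4, CHLP and LUT1 (9.76% beside 3.41%) were in every HY5ox and no HY5-VP16 library. In every HY5ox and no HY5-SRDX library were PORC and PDS without HY5ox replicate 1 (4.88% beside 3.4%), and PDS and LUT1 without HY5ox replicate 2 (4.88% beside 5.23%).

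Another 43 genes of the 2 pathways, chosen by function, gave a reference. The 41 genes above had 52.1% of possible listings and these 43 had 48.5%, and which set was ahead varied by library. The 41 were ahead in 5 libraries and the 43 in the other 3, namely HY5-VP16 replicate 2 (51.2% for the 41 and 65.1% for the 43), HY5-SRDX replicate 2 (48.8% and 53.5%) and HY5ox replicate 1 (58.5% and 62.8%). Every HY5-VP16 library listed 31.7% of the 41 and 16.3% of the 43, both HY5-SRDX libraries listed 31.7% and 37.2%, and every HY5ox library 34.1% and 25.6%. All 8 libraries listed 5 of the 41 and 2 of the 43 (4.65%), which were PPOX1, a protoporphyrinogen oxidase, and UPM1, of the siroheme branch. At least 7 libraries listed 14 of the 41 and 10 of the 43 (23.3%). FC2, a ferrochelatase, HO3, a heme oxygenase, and PAO, which opens the ring of chlorophyll during breakdown, were listed in none. For the listed genes among the 43, the strongest peak was in the promoter for 81.3%, 78.6% and 100% in HY5-VP16. The shares were 57.7% and 87.0% in HY5-SRDX and 88.9%, 100% and 85.2% in HY5ox, so the constructs overlapped. A peak in every HY5-VP16 and HY5ox library and in neither HY5-SRDX library was found at 6 of 87 regions of the 41 genes and 0 of 94 regions of the 43. The 43 genes had 11 regions with a peak in every HY5ox library. HY5-VP16 replicates 1, 2 and 3 had a peak in 63.6%, 72.7% and 45.5% of these 11. HY5-SRDX replicates 1 and 2 had a peak in 36.4% and 72.7%, so among the 43 the constructs overlapped.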

How the data were processed

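The tools named in the submitters' processing notes are HOMER 4.9.1, Bowtie2 2.3.0 and CASAVA 1.8.2, and the build is TAIR10. Per the file headers, the authors called peaks in each library against the control of its set with the transcription factor mode of findPeaks, at a false discovery rate of 0.001. Each peak needed 3-fold more tags than the control (Poisson p 0.0001) and 2-fold more than the surrounding 10 kb (Poisson p 0.001). Deposited values are the signal (tags scaled to 10 M), the caller's score and the fold, a ratio of peak tags to control tags. The file headers show that the caller scaled the control tags to the library, except in HY5-VP16 replicate 3, where it scaled the library to the control. The authors assigned peaks to genes. No source used here names their annotation.

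The deposited gene lists were used as they stand. Distances run from the peak centre to the start site implied by the authors' assignment table, the most upstream where there are several. Coordinates are TAIR10 and 1-based. RefSeq's gene table (TAIR10.1) gave names and gene types, not coordinates; 24902 of 25263 listed identifiers matched it. Peaks that overlapped by at least 1 bp between libraries were merged into regions. Tests treated each library as 1 observation, and Fisher's exact tests were adjusted by the Benjamini-Hochberg method over all protein-coding genes or regions. The listing test and the distances were checked on simulated data. Members and gene lists were chosen with earlier results of these data known. All 41 members are named, with values by library for those listed in 7 or 8 libraries, and other pathway genes are named when listed in all 8 libraries or in none. Computations ran in Python 3.11.15 with scipy 1.17.1, pandas 2.3.3, numpy 2.4.6 and, for figures, matplotlib 3.10.9.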

Additional observations from a re-analysis of the deposited data

How the results depend on the processing

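With any gene of the peak table taken as listed, every count stayed within 1.5 times its value. Except for genes shared by all 8 libraries, treated above, the counts below stand without the share of protein-coding genes. They describe how the counts move between settings and not a difference from the background. Keeping promoter assignments only, HY5-SRDX replicates 1 and 2 listed 16 and 13 pigment genes, both of them shared 7, and all 8 libraries shared 3 (CAO, LUT2 and ZEP). The genes in every library of a construct and none of another then numbered 4 for HY5-VP16 without HY5-SRDX, 5 for HY5ox without HY5-SRDX, 1 for HY5-SRDX without HY5-VP16 and 0 for HY5-SRDX without HY5ox. With peaks of at least 5 times the control tags, HY5-VP16 replicate 3, HY5-SRDX replicates 1 and 2 and HY5ox replicates 2 and 3 listed 4, 15, 10, 9 and 18; the libraries of HY5-VP16, HY5-SRDX and HY5ox shared 3, 6 and 7, and all 8 shared 1 (LUT2). That fold left 1 gene for HY5-VP16 without HY5-SRDX, 2 for HY5ox without HY5-SRDX, 0 for HY5-SRDX without either, and 1 region absent from HY5-SRDX alone. With the 2958 strongest peaks of each library, HY5-VP16 replicates 1 and 2 listed 9 and 8, HY5-SRDX replicates 3 and 2, and HY5ox replicates 11, 10 and 10; the constructs shared 6, 1 and 8, and all 8 libraries 0, though LUT2, BCH1 and ZEP were in 7. In that setting 4 genes were in every HY5-VP16 and no HY5-SRDX library, 5 in every HY5ox and no HY5-SRDX library, and 0 in HY5-SRDX without either. With peaks of a single gene only, the libraries listed 9, 9 and 7 (HY5-VP16), 14 and 13 (HY5-SRDX) and 9, 8 and 9 (HY5ox), each construct shared 7, all 8 still shared 5, and the comparisons gave 0 for HY5ox without HY5-SRDX, 0 for HY5-SRDX without HY5ox and 1 for HY5-SRDX without HY5-VP16.

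Leaving out each library in turn, the genes shared ranged from 13 to 17 in HY5-VP16, 20 to 27 in HY5-SRDX, 14 to 23 in HY5ox and 5 to 9 in all. Genes in every library of a construct and none of another stayed at 0 for HY5-VP16 without HY5ox and ranged from 0 to 4 for HY5-VP16 without HY5-SRDX, 3 to 10 for HY5-SRDX without HY5-VP16, 2 to 9 for HY5-SRDX without HY5ox, 0 to 4 for HY5ox without HY5-VP16 and 1 to 5 for HY5ox without HY5-SRDX. Regions absent from HY5-SRDX alone ranged from 6 to 10. Leaving out HY5-VP16 replicate 3 and HY5-SRDX replicate 1 together left 10 genes in all libraries. With set 1 alone, HY5ox held 24 genes and all its libraries 8, and the comparisons gave 1 for HY5-VP16 without HY5ox, 4 for HY5ox without HY5-VP16, 2 for HY5ox without HY5-SRDX and 1 for HY5-VP16 without HY5-SRDX. These set 1 comparisons, too, stand without the share of protein-coding genes. Counted by merged regions, a comparison chosen after seeing the data, HY5ox without HY5-VP16 gave 1, HY5ox without HY5-SRDX 8 and HY5-VP16 without HY5-SRDX 7. Pigment gene regions found in at least 5 of the other 7 libraries, a choice in which HY5-SRDX takes less part than the other constructs, were held at 80% to 100% by HY5-VP16 and at 20% and 50% by HY5-SRDX libraries. For regions of protein-coding genes the shares were 89.4%, 86.1% and 42.8% in HY5-VP16 replicates 1, 2 and 3. They were 41.5% and 75.7% in HY5-SRDX replicates 1 and 2, so there the constructs overlapped. With promoter defined as a centre within 1000 bp upstream, HY5-SRDX replicates 1 and 2 had 8 and 7 genes in place of 13 and 13. Ranked by fold over control, the mean of the HY5-VP16 medians of pigment genes was 49.9% in place of 37.3%. It stands without the value for protein-coding genes. For the other pathway genes, the number in every library of HY5-VP16, HY5-SRDX, HY5ox and all 8 was 7, 16, 11 and 2 with the deposited lists. It was 1, 8, 4 and 0 at 5 times the control, 4, 2, 6 and 0 with the strongest peaks, and 1, 7, 6 and 1 with peaks of a single gene. Apart from those for all 8 libraries, the counts under these settings, too, stand without the share of protein-coding genes. Same-numbered HY5-VP16 and HY5ox libraries did not deviate together (r = 0.0696, -0.0970 and -0.0485 over protein-coding genes). Replicate 2 of HY5-VP16 was in set 1 and replicate 2 of HY5ox in set 2, so replicate numbers do not stand for sets. The check therefore cannot address differences between sets. Counting genes discordant in every same-numbered pair gave 0 in either direction, which is the same condition as the count without pairs. The cause of these shifts was not tested. A gene missing from a list may have a peak below the caller's thresholds. The planned search for ACGTG and CACGTG in promoters was not run, since no promoter sequence was used here.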
